A study of Rattus norvegicus with 6 samples.

Results

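The BCL2 family decides whether a cell's mitochondria are opened to start apoptosis, and its transcripts were compared here between control and monocrotaline-treated rat lungs. The genes were taken by symbol from a fixed list of 10 (Bcl2, Bcl2l1, Mcl1, Bcl2a1, Bak1, Bid, Bbc3, Pmaip1, Bcl2l11 and Bik). Of these, 9 had a row in the table of 23802 genes, with 1 identifier each, and all 9 were expressed enough to be tested. Bbc3 was not analysed here. PolyA RNA came from whole lung of male wild-type Sprague-Dawley rats of 200 to 250 g, with 3 saline control samples and 3 samples taken 4 weeks after 1 injection of 60 mg/kg monocrotaline (MCT). MCT is a plant alkaloid that injures lung vessels and serves as a rat model of pulmonary arterial hypertension. The labels give the MCT injection as intraperitoneal in one place and subcutaneous in another, and the saline as subcutaneous. They do not say whether each sample is 1 animal, so the p-values cover only the variation among these samples, and some of it may be technical. Where 3 values are listed for a group, they follow the order of replicates 1, 2 and 3.

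Proteins of this family fall into 3 classes. Pro-survival members (BCL2, BCL-XL from Bcl2l1, MCL1 and BCL2A1) hold the death-promoting members in check. Effectors (BAK from Bak1, and BAX) form pores in the outer mitochondrial membrane, through which cytochrome c escapes to activate caspases. BH3-only proteins (BID, NOXA from Pmaip1, BIM from Bcl2l11, BIK, and PUMA from Bbc3) sense damage, loss of growth signals or death receptors, and either block the pro-survival members or activate the effectors. In the lung these proteins bear on how long endothelial, epithelial and immune cells live. Much of their control is on the protein, which transcript levels do not show.

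The 6 libraries held 13525912 to 17916134 summed counts. Lung markers were abundant in every library, with the surfactant gene Sftpc at 12360 to 14855 CPM (TMM-normalized counts scaled to a fixed library size) in controls and 5496 to 10870 CPM in MCT samples. Markers of several cell types moved with the groups. The summed level of 5 mast cell markers was 15 to 26.5 CPM in controls and 365.3 to 1273 CPM in MCT lungs, and all 5 rose. The 5 markers of dividing cells summed to 41.1 to 54.4 CPM in controls and 174.3 to 213 CPM in MCT lungs, and all 5 rose. All 4 measured B cell markers and 2 of 5 endothelial markers fell. The sum of 5 neutrophil markers was 594.6 CPM in MCT replicate 1, against 51.1 and 71 CPM in the other MCT samples and 32.8 to 61.7 CPM in controls. S100a9 (455.5 CPM) and S100a8 (84.7 CPM) made up most of it, while Mmp8 was 12.8, 9.48 and 8.13 CPM across the MCT lungs. In bulk tissue, a change in the number of cells of a type and a change in RNA per cell cannot be told apart.

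In MCT lungs Bid and Bak1 were higher, by 1.79-fold and 1.56-fold, and Bcl2a1 was 1.71-fold higher without passing the test. Of the 9 members 2 rose, 0 fell and 7 did not pass (edgeR quasi-likelihood test on all 15250 tested genes, Benjamini-Hochberg adjusted p under 0.05). Among all genes tested, 8.01% were called higher and 5.11% lower. At an unadjusted p under 0.05, 3 members were higher and 0 lower. DESeq2 called 3 higher and 0 lower, and limma-voom called 2 higher and 0 lower. The log2 fold change (MCT over control) was above 0 in 8 of 9 members and in 7419 of the 15250 tested genes. Its median was 0.41 in the members and -0.01 over all tested genes. The groups did not overlap in 3 members, all with MCT above control, as in 18.4% of all tested genes. MCT lay below control in 0 members and in 17.0% of all tested genes. Only 1 member, Bcl2l11, had a lower mean in MCT lungs.

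**Figure D1:**
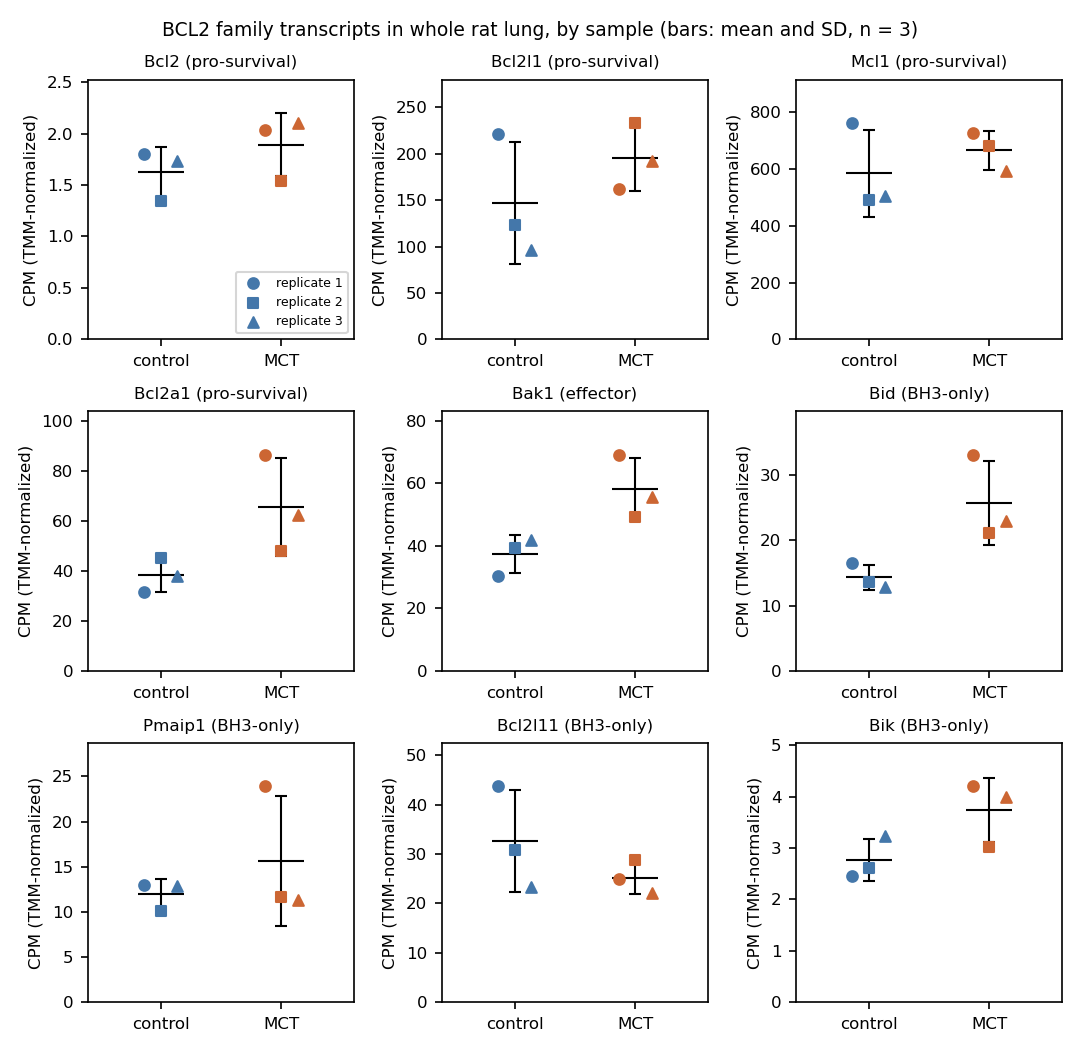
TMM-normalized CPM (linear axis from 0) of the 9 measured members in each control and MCT lung, with 1 point per sample, its shape giving the replicate number, and bars for the mean and SD of 3 samples. Bcl2a1, Bak1 and Bid have every MCT sample above every control sample, and the other 6 members overlap.

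Bid encodes the BH3-only protein that caspase-8 cleaves, which links death receptors to mitochondria. Its level was 16.5, 13.6 and 12.9 CPM across the controls and 33.1, 21.1 and 22.9 CPM across the MCT lungs. The lowest MCT sample lay above the highest control, and MCT replicate 1 was the highest of the 6. The group levels were 14.3 ± 1.91 CPM (SD, n = 3) in controls and 25.7 ± 6.47 CPM (SD, n = 3) in MCT lungs, resting on 183 to 488 counts per library. The edgeR log2 fold change of Bid, 0.84 with an SE of 0.20 (adjusted p = 0.0309), was the largest among the 9 members. Bid was not called when control 2, control 3, MCT 1 or MCT 3 was left out, with adjusted p-values of 0.101, 0.113, 0.0809 and 0.0574 in that order, and over the 16 alternatives the adjusted p ran from 0.00377 to 0.113. Leaving out a sample kept the log2 fold change of Bid between 0.62 and 0.97.

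Bak1 encodes the pore-forming effector that sits on the outer mitochondrial membrane even in healthy cells. It was measured at 30.4, 39.4 and 42 CPM across the controls and at 69.1, 49.3 and 55.6 CPM across the MCT lungs. The groups did not overlap, and MCT replicate 1 was again the highest. Bak1 rose from 37.3 ± 6.06 to 58 ± 10.1 CPM (SD, n = 3), a log2 fold change of 0.64 (SE 0.17, adjusted p = 0.0433, edgeR). This call is close to the threshold. Leaving out control 1, 2 or 3 ended it, with adjusted p-values of 0.093, 0.1 and 0.0803, as did leaving out MCT 1 (0.124) or MCT 3 (0.093). Library totals in place of TMM (adjusted p = 0.0551) and the replicate number as a block (adjusted p = 0.0922) also ended it. Over all 16 alternatives the adjusted p of Bak1 ran from 0.0115 to 0.124 and the log2 fold change from 0.50 to 0.74.

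Bcl2a1 encodes a pro-survival protein of blood-derived cells, known as an NF-kB target. Its level was 31.7, 45.2 and 37.9 CPM across the controls and 86.5, 47.8 and 62.5 CPM across the MCT lungs. No MCT sample lay within the control range, but MCT replicate 2 was just above the highest control. By edgeR the difference was 0.78 on the log2 scale with an SE of 0.22 (adjusted p = 0.0536), with a limma-voom 95% interval of 0.24 to 1.26. Bcl2a1 was called with DESeq2 (adjusted p = 0.0108), with no filter on low counts (adjusted p = 0.0452) and when MCT 2 was left out (adjusted p = 0.0161), and over the 16 alternatives the adjusted p ran from 0.0108 to 0.146. The order of the MCT samples, with replicate 1 highest and replicate 2 lowest, was also that of the summed mast cell markers (1273, 365.3 and 739 CPM across the MCT lungs). Bid and Bak1 had this order too, so it is not particular to Bcl2a1. In controls the mast cell sums were 26.5, 18 and 15 CPM, where Bcl2a1 was lowest in the sample with the highest sum. The 5 macrophage markers summed to 29839 to 38952 CPM in controls and 23935 to 33596 CPM in MCT lungs, nearly all of it from Lyz2 (log2 fold change -0.27, adjusted p = 0.538, edgeR). Of the other 4, Cd68 and Mrc1 rose (log2 fold changes of 1.96 and 1.15, both highest in MCT replicate 1), Csf1r was not called (0.25, adjusted p = 0.382), and Marco was at 0 in all 3 controls and untested. Without Lyz2 the sum was 353.3 to 446.5 CPM in controls and 624.1 to 860.7 CPM in MCT lungs. The part of these cells in the Bcl2a1, Bid and Bak1 levels was not tested.

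The promoters of these 3 genes are shown because their transcripts were the ones with no overlap between the groups. They are the 250 bases before the annotated start in RefSeq (build GRCr8, which is not the build of the counts), and 8 of the 10 genes had an entry in that table. Capitals mark matches, on either strand, to any of 10 motifs.
Bak1 (GRCr8, chr20:5110975-5111224, minus strand): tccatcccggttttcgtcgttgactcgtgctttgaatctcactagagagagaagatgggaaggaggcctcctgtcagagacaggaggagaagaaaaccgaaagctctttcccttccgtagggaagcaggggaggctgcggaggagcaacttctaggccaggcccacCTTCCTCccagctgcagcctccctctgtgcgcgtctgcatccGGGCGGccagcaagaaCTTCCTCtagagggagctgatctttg
Bid (GRCr8, chr4:155808320-155808569, minus strand): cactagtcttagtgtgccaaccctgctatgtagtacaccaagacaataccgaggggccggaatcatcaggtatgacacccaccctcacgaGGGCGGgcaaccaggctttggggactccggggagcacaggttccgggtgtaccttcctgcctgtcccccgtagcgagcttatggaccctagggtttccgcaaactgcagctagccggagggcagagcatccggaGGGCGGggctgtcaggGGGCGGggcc
Bcl2a1 (GRCr8, chr8:98596556-98596805, plus strand): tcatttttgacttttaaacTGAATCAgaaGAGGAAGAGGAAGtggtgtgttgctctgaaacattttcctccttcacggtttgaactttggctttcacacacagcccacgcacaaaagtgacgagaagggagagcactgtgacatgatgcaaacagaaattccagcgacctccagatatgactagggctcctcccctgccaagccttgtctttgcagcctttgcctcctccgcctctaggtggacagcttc
The motifs searched were a p53 half-site (not the full p53 site), the NF-kB motif, TGANTCA (AP-1), TGACGT (CRE), CACGTG (E-box), GTAAACA (FOXO), TTCNNNGAA (STAT), GGGCGG (GC box), GAGGAAG (PU.1 core) and TATAAA (core promoter box). The Bak1 window held a GC box and, on the opposite strand, a pair of PU.1 cores. Bid held 3 GC boxes and no other motif of the 10. Bcl2a1 held an AP-1 motif and a pair of PU.1 cores that overlap by 1 base. Of 33469 rat promoters of this length, 30.5% held a GC box, 10.2% a PU.1 core and 6.34% an AP-1 motif, counting promoters with at least 1 match. Neither the p53 half-site (6.64% of promoters) nor the NF-kB motif (3.54%) was in these 3 windows, and NF-kB motifs were found in the Mcl1 and Pmaip1 windows. A match is a description of the letters and not evidence of binding.

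Transcripts of the remaining pro-survival members were not called. Bcl2l1, whose main product BCL-XL guards mitochondria in many cell types, was measured at 221.1, 122.7 and 96.6 CPM across the controls and at 162.3, 232.8 and 191.9 CPM across the MCT lungs. Control replicate 1 lay within the MCT range and 2.29 times above control replicate 3. With all samples the log2 fold change was 0.41 (adjusted p = 0.373, edgeR; limma-voom 95% interval -0.16 to 1.13). Without control replicate 1 it was 0.84 and Bcl2l1 was called (adjusted p = 0.0396). No other sample's omission gave a call for this gene, and the adjusted p over all alternatives ran from 0.0396 to 0.722. Gene-level counts do not separate BCL-XL from the shorter, death-promoting splice form of the same gene.

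Mcl1, a short-lived protein that myeloid cells depend on, was the most abundant member by CPM. Its level was 761.6, 489.9 and 503.6 CPM across the controls and 726.2, 680.4 and 591.7 CPM across the MCT lungs. Here too control replicate 1 was the highest, and the groups overlapped (log2 fold change 0.19, adjusted p = 0.566, interval -0.22 to 0.64). The Mcl1 row is a locus assembled from the reads, named by its match to the mouse protein. The length implied by its count and FPKM is 8771 bases, so it may hold sequence beyond the Mcl1 transcript.

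Bcl2 itself was scarce, at 1.8, 1.34 and 1.73 CPM across the controls and 2.03, 1.54 and 2.1 CPM across the MCT lungs. These values rest on 18 to 32 counts per library over an implied length of 1142 bases. The log2 fold change of 0.22 (adjusted p = 0.702) had an interval of -0.52 to 0.92, so a change of either sign was not excluded at this depth. Bcl2 is known for its high level in resting lymphocytes. The T cell markers summed to 47.3 to 68.9 CPM in controls and 27.5 to 47.4 CPM in MCT lungs with 0 of 5 called (edgeR; 4 of 5 lower at an unadjusted p under 0.05, and 1 called lower by DESeq2), and the B cell markers fell.

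Among the other BH3-only genes no call was made. Pmaip1, the gene of NOXA, which binds MCL1 and is a known p53 target, was measured at 13, 10.1 and 12.9 CPM across the controls and at 23.9, 11.6 and 11.3 CPM across the MCT lungs. Its log2 fold change of 0.38 (adjusted p = 0.442) came from MCT replicate 1 alone, and without that sample it was -0.07 (adjusted p = 0.886, with 0.265 to 0.886 over all alternatives). MCT replicates 2 and 3 lay within the control range. MCT replicate 1 was also the sample with the high neutrophil marker sum. The part of these cells in the Pmaip1 level was not tested.

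Bcl2l11 encodes BIM, which ends the lives of lymphocytes and of cells that lose growth factors. It was the member with a negative value, with 43.7, 30.8 and 23.4 CPM across the controls and 24.9, 28.7 and 22.1 CPM across the MCT lungs. The controls spread 1.87-fold and covered 2 of the 3 MCT samples. The log2 fold change was -0.37 (adjusted p = 0.311, interval -0.84 to 0.21) and went to -0.10 without control replicate 1. Bik, which acts at the endoplasmic reticulum, stood at 2.46 to 3.24 CPM in controls and at 3.02 to 4.2 CPM in MCT lungs on 35 to 62 counts per library. Its log2 fold change was 0.43 (adjusted p = 0.342, interval -0.21 to 1.02), with MCT replicate 2 inside the control range.

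**Figure D2:**
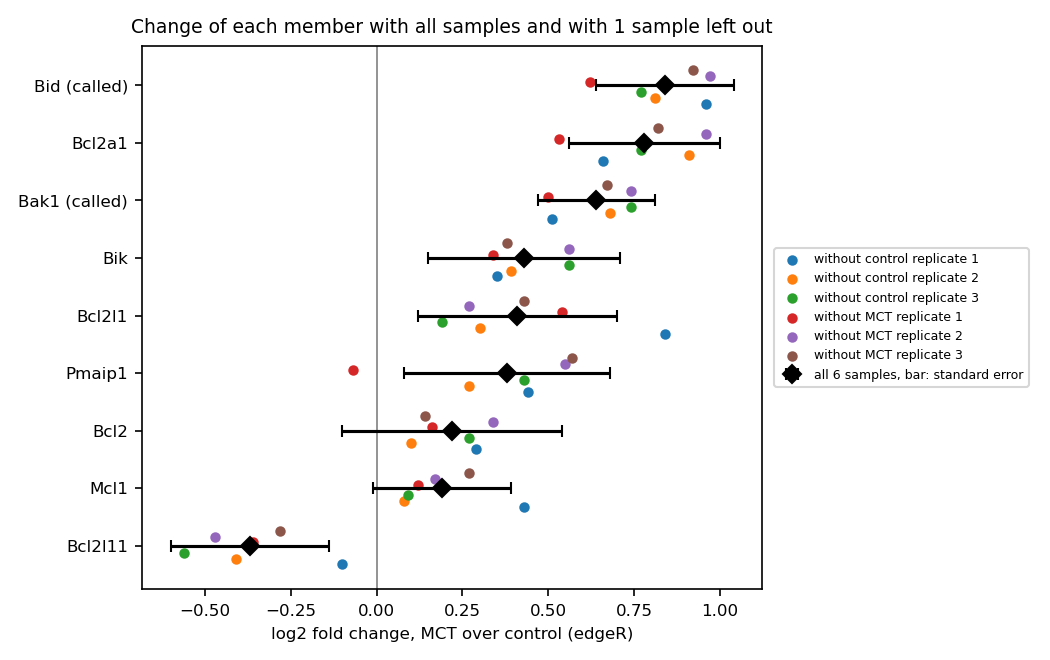
Log2 fold change (MCT over control, edgeR) of each measured member, with black diamonds and bars for all 6 samples and their standard error and coloured dots for the fits with 1 sample left out. Bid, Bcl2a1 and Bak1 stay between 0.50 and 0.97 with any sample left out, Pmaip1 drops to -0.07 without MCT replicate 1, and Bcl2l1 moves to 0.84 without control replicate 1.

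The spread among these genes had a pattern by sample. Control replicate 1 was the highest control for 6 of the 9 members (Bcl2, Bcl2l1, Mcl1, Bid, Pmaip1 and Bcl2l11) and the lowest for the other 3. MCT replicate 1 was the highest MCT sample for 6 of 9 (Mcl1, Bcl2a1, Bak1, Bid, Pmaip1 and Bik). MCT replicate 2 was the lowest MCT sample for 5 of 9. These counts describe samples and carry no test.

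Levels can be set against each other between genes only per length, so the authors' FPKM (fragments scaled to gene length and library size) were used for that. In controls the order of mean FPKM was Mcl1 at 66.6, Bcl2l1 at 61.7, Bcl2a1 at 46, Bak1 at 20, Bid at 7.21, Bcl2l11 at 6.66, Pmaip1 at 4.36, Bik at 2.91 and Bcl2 at 1.41. The 3 pro-survival genes at the top overlapped with their neighbours in this order and lay above Bak1 in every control. Bid, Bcl2l11 and Pmaip1 also overlapped with their neighbours. In MCT lungs the same 3 genes led, with Bcl2l1 at 82.3, Bcl2a1 at 78.5 and Mcl1 at 75.7 FPKM, and their ranges again overlapped. Bid at 12.9 FPKM then lay above Pmaip1 (5.64) and Bcl2l11 (5.13) in every MCT sample. The place of Mcl1 and Bcl2 in this order depends on their implied gene lengths given above.

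Among the 4 listed BH3-only genes that were measured, the make-up shifted towards Bid. Of the summed FPKM of these 4 genes, Bid made up 33.9%, 34.6% and 33.9% across the controls and 48.1%, 44% and 47.4% across the MCT lungs. The controls differed by less than 1 percentage point, and every MCT sample lay above them. The share of Bcl2l11 was 36.4%, 33.1% and 24.1% in controls and 14.1%, 25.3% and 18.5% in MCT lungs, which overlap. The ratio of Bid to Bcl2l11 FPKM was 0.931, 1.04 and 1.41 in controls and 3.4, 1.74 and 2.56 in MCT lungs. These shares and ratios were chosen after the values were seen and were not tested. The shares leave out Bad and Bmf, BH3-only genes outside the list. Bad had a mean of 26.3 FPKM in controls and 30.9 FPKM in MCT lungs, and Bmf 12.3 and 12.2 FPKM. Shares of Bid with these genes in the sum would be lower and were not computed.

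**Figure D3:**
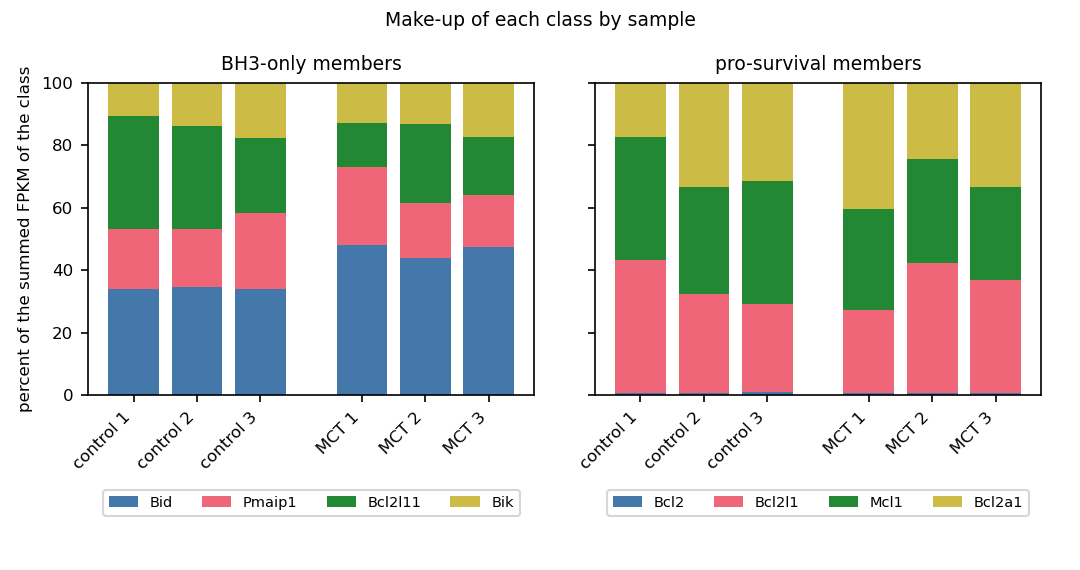
Share (percent, stacked to 100) of each gene in the summed FPKM of the measured BH3-only members (left) and pro-survival members (right), 1 bar per sample. The Bid segment covers 33.9% to 34.6% in controls and 44% to 48.1% in MCT lungs. No pro-survival member shown but Mcl1 (34.2% to 39.5% against 29.9% to 33.1%) parts the groups. Bad, Bmf and Bcl2l2, outside the list, are not in these sums.

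The gene of BAX, the partner effector of BAK, also rose. Bax is outside the 10 genes, and its 1.89-fold rise was larger in multiples of its standard error than that of any member (log2 fold change 0.92, SE 0.12; edgeR adjusted p = 0.0029). Per length, Bax and Bak1 summed to 94.5, 93.7 and 88.4 FPKM across the controls and 172.4, 164.6 and 170.4 FPKM across the MCT lungs. The 4 listed pro-survival genes summed to 215.4, 161.9 and 150.2 FPKM in controls and 258.3, 231.5 and 224.4 FPKM in MCT lungs, again with no overlap. None of the 4 passed the test by itself. This sum leaves out Bcl2l2, a pro-survival gene outside the list, with every MCT sample below every control. Bcl2l2 was 48.72, 47.17 and 57.29 FPKM across the controls and 36.12, 46.61 and 41.23 FPKM across the MCT lungs (edgeR adjusted p = 0.187). Ratios that include Bcl2l2 were not computed. The sum of the 4 listed genes over the Bax and Bak1 sum was 2.28, 1.73 and 1.7 in controls and 1.5, 1.41 and 1.32 in MCT lungs, below every control. Without the uncertain Mcl1 locus this ratio was 1.38, 1.14 and 1.03 in controls and 1.02, 0.941 and 0.923 in MCT lungs, where the groups come within 0.01 of each other. The Bax to Bcl2 ratio was 50.8, 62.9 and 42.5 in controls and 75.5, 102.3 and 76.8 in MCT lungs, with the low counts of Bcl2 as its limit. Other ratios overlapped between the groups. Bcl2l1 over Bax was 1.18, 0.706 and 0.641 in controls and 0.507, 0.703 and 0.572 in MCT lungs, and Bak1 over Bax was 0.215 to 0.341 and 0.192 to 0.268. Bak1 over Mcl1 and Bak1 over Bcl2l1 overlapped as well. The sum of the 4 listed BH3-only genes, which leaves out Bad and Bmf, overlapped, at 19.7 to 24 FPKM in controls and 23.7 to 34.7 FPKM in MCT lungs. These sums and ratios are descriptions of transcripts and carry no test.

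The rest of the apoptosis pathway was taken from lists of 63 other genes, of which 59 were in the table and 57 tested. Of these, 4 rose, 4 fell and 49 did not pass, near the 8.01% of all tested genes called higher and 5.11% called lower, and the median log2 fold change was 0.04. The rises were in Bax, Birc5, Mdm2 and Tnfrsf1a, and the falls in Casp6, Xiap, Tnfsf10 and Foxo1. Among the 10 tested other BCL2 proteins, Bax rose and 9 did not pass. Bnip3l, a BH3-like receptor for the removal of mitochondria, was 318.2 ± 11.5 CPM in controls and 256.7 ± 16.2 CPM in MCT lungs (SD, n = 3; adjusted p = 0.114).

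The lists of apoptosome and mitochondrial release genes and of caspases come next, with 13.1% of all tested genes called in either direction as the background. None of 11 apoptosome and mitochondrial release genes was called by edgeR, DESeq2 or limma-voom, with 3 higher and 1 lower at an unadjusted p under 0.05. For Cycs, the cytochrome c gene, the row held only 0 to 20 counts per library (limma-voom 95% interval -1.37 to 3.75). A change of Cycs in either direction was therefore not excluded. The log2 fold change was -0.36 for Apaf1, the scaffold of the apoptosome (adjusted p = 0.0748), and 0.39 for Mtch2, a mitochondrial receptor for BID (adjusted p = 0.111), and 0.04 for the pore gene Vdac3, the most abundant of the list per length. The caspase list of 10 tested genes also holds Dffa and Dffb, which are not caspase genes. In this list edgeR and DESeq2 each called 0 higher and 1 lower. At an unadjusted p under 0.05 edgeR had 1 higher and 3 lower. Casp6, an executioner caspase, fell 2.27-fold from 11.4 ± 1.78 to 5.02 ± 0.885 CPM (SD, n = 3; adjusted p = 0.0125). For Casp1, the inflammatory caspase with the highest mean FPKM of the list, the log2 fold change was -0.46 (adjusted p = 0.113).

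Of 6 tested caspase inhibitors 1 rose and 1 fell. Birc5, the gene of survivin, which is also a mitotic protein, rose 5.4-fold, from 1.7 ± 0.271 to 9.24 ± 1.57 CPM (SD, n = 3), beside the markers of dividing cells. Its part in survival and in division cannot be told apart in these data. Xiap, which blocks caspases directly, fell 1.92-fold, from 15.2 ± 0.677 to 7.93 ± 1.43 CPM (adjusted p = 0.0158). Xiap was not called when control 2 or control 3 was left out (adjusted p = 0.0609 and 0.0537), and its adjusted p ran from 0.000574 to 0.0609 over the alternatives. For Birc6, the most abundant per length, the log2 fold change was -0.04, and its sign turned in 3 alternatives. The Birc6 row is a locus assembled from the reads. With all identifiers of the symbol summed the value was -0.13, so the row may not hold the whole gene and its level per length is uncertain.

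In the death receptor list of 7 tested genes, upstream of BID in the pathway, edgeR called 1 higher and 1 lower, DESeq2 called 1 higher and 2 lower, and limma-voom called 0 higher and 1 lower. At an unadjusted p under 0.05 edgeR had 1 higher and 2 lower. Tnfsf10, the gene of the death ligand TRAIL, fell 6.81-fold, from 184.5, 176.5 and 259.2 CPM across the controls to 23, 48.7 and 19.2 CPM across the MCT lungs (adjusted p = 0.0027). This fall was the largest among the 57 genes. Faslg, the gene of the death ligand FasL, was 3.94 ± 0.874 CPM in controls and 1.62 ± 0.664 CPM in MCT lungs (SD, n = 3), with no overlap and a log2 fold change of -1.27 that did not pass (edgeR adjusted p = 0.0544). It is outside the naming rule and was added after its values were seen. The TNF receptor gene Tnfrsf1a rose 1.41-fold (adjusted p = 0.0489), a call that ended in 11 of 16 alternatives, among them without any 1 sample other than MCT replicate 2 (adjusted p = 0.0839 to 0.147, and 0.0185 to 0.147 over all 16). Among 13 upstream regulators, Mdm2, the p53-induced brake on p53, rose 1.61-fold (adjusted p = 0.0055) and was called in all 16 alternatives. Foxo1, a transcription factor known to induce Bcl2l11, fell 1.67-fold (adjusted p = 0.0207). The Foxo1 call ended without control replicate 2 or 3, without MCT replicate 1 or 3 and with the replicate block (adjusted p = 0.055 to 0.0853, and 0.0036 to 0.0853 over all alternatives). For Atf4, the list's most abundant gene per length, the log2 fold change was 0.16 (adjusted p = 0.431).

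**Figure D4:**
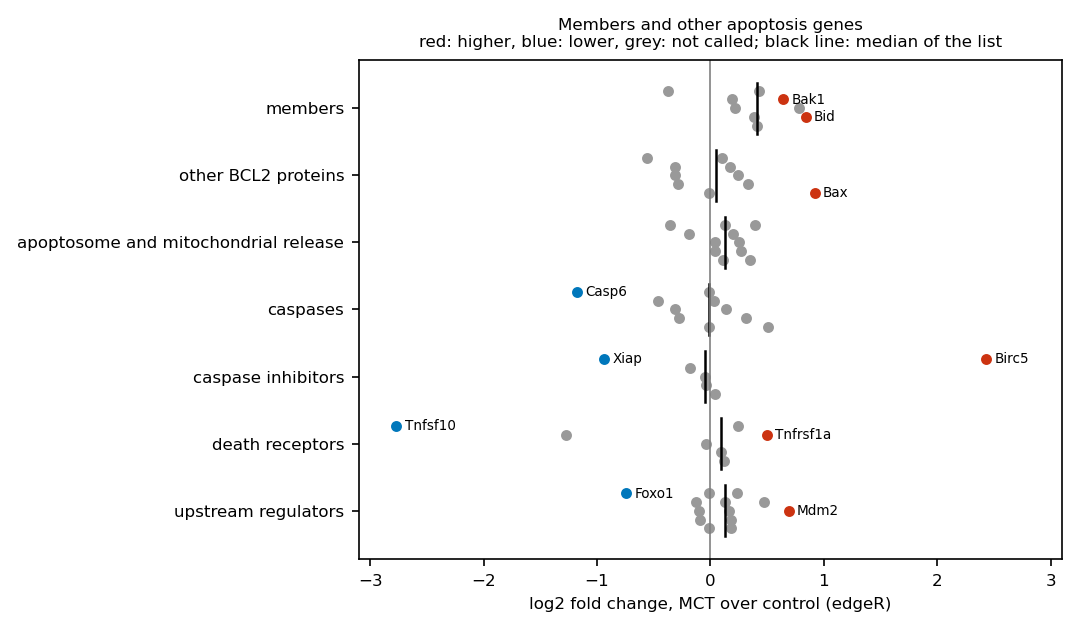
Log2 fold change (MCT over control, edgeR) of each tested gene, 1 dot per gene, in the BCL2 family members and in 6 lists of other apoptosis genes, with called genes named and a black line at each list's median. The members' median is 0.41 and that of the 57 other genes together is 0.04.

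The genes whose levels over the 6 samples were most like those of Bid, the member with the smallest p, were Pld1, Gdf11 and Heatr1. Their Pearson r with Bid in log2 CPM was 0.997, 0.996 and 0.995, the highest among 11930 genes with a mean of at least 5 CPM, and each had MCT replicate 1 highest. With 6 samples in 2 groups, and a choice among so many genes, these r are given as a description only. Pld1, a phospholipase D gene, was 23.5 ± 3.42 CPM in controls and 45.2 ± 10.5 CPM in MCT lungs (SD, n = 3). Gdf11 and Heatr1 stood at log2 fold changes of 0.54 (adjusted p = 0.13) and 0.55 (adjusted p = 0.044).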

How the data were processed

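PolyA RNA-seq values of 6 whole-lung samples were read from 1 deposited table. Per the file headers it holds estimated counts and FPKM values, both made by the authors. Alignment used TopHat2 2.0.3.12 and Bowtie2 against Rnor_6.0, as far as the submitters' processing notes say. The counting tool and its treatment of multi-mapping reads are not stated in the labels or file. Among the estimated counts above 0, 90.7% to 91.5% per sample were whole, and the rest were rounded for testing. Genes were tested in R 4.3.3 by the quasi-likelihood method of edgeR 4.0.16 with TMM, no covariates and filterByExpr (minimum count 10, minimum total 15), adjusted over 15250 genes. The standard error is the log2 fold change divided by the root of F. Intervals come from limma-voom (limma 3.58.1). Alternatives were DESeq2 1.42.0, limma-voom, other scalings and filters, a minimum count of 50, log2(FPKM + 0.1) and log2(FPKM + 1) with limma, the replicate number as a block, summed identifiers and leaving out each sample. No pair of replicates matched within sampling noise (chi-square over degrees of freedom from 23.2 to 52.6). Counts carry no molecular identifiers, so their precision covers counting error only.

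The members and gene lists were chosen with earlier results of these data known. The text names all members and, for each pathway list, the tested genes with the 2 smallest p and the one with the highest mean FPKM, and for Bid the 3 most similar genes. One gene that this rule names is not reported here. The marker lists were T cell, B cell, neutrophil, mast cell, macrophage, erythroid, airway and alveolar epithelium, endothelium and mitosis. Of 5 neutrophil markers 0 were called by edgeR or DESeq2 (3 higher at an unadjusted p under 0.05), of 6 epithelial markers 0 by either (0 at an unadjusted p under 0.05), and of 4 tested erythroid and 4 tested macrophage markers 2 each were higher.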

Additional observations from a re-analysis of the deposited data

How the results depend on the processing

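With the 16 alternatives, 127 of 143 values of the members kept their direction and their side of the threshold, 11 lost a call, 4 gained one and 1 changed sign, which was Pmaip1 (-0.07 to 0.57 with a sample left out, the lowest without MCT replicate 1). The count of members higher in MCT, 2 with all samples, was 1 with library totals in place of TMM and 1 with the replicate block, and ran from 0 to 3 when a sample was left out: it was 0 without control replicate 2, control replicate 3, MCT replicate 1 or MCT replicate 3, and 3 without MCT replicate 2. The count of members lower was 0 in every alternative. Over all genes, leaving out a sample gave 480 to 1394 genes higher (1221 with all) and 212 to 978 lower (779 with all), so fewer calls of any kind were made with 5 samples in 5 of 6 cases. Other pathway genes called lower ran from 2 to 5 with a sample left out, and those called higher from 3 to 6. Birc6 ran from -0.11 to 0.11 with a sample left out and stood at 0.00 (rounded) on both FPKM scales, and Vdac3 ran from -0.04 to 0.09 with a sample left out. Replicate numbers are shared between the groups by label only. Deviations of same-numbered samples from their group means had correlations of -0.058, -0.070 and -0.002, which gives no sign of pairing. With the replicate block Bid remained called (adjusted p = 0.0283), Bak1 was not (adjusted p = 0.0922), and 914 genes were higher and 543 lower. Depth limits Bcl2 (18 to 32 counts per library) and Bik (35 to 62) most.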
